A study of Homo sapiens with 30 samples.

Results

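The genes described here are 49 splicing regulators: 11 SRSF proteins, 2 TRA2 proteins, 7 factors of the branch point and 3′ splice site, 14 HNRNP proteins, 4 CLK kinases, 3 nuclear speckle proteins, 6 neuronal RNA-binding proteins and 2 broadly expressed regulators of neuronal exons (PTBP1 and RBFOX2). They were taken by name from a list of gene symbols, drawn up with earlier results of these data known, and matched to Ensembl gene identifiers. All 49 were found in the IMR32 table, which holds 62710 genes, and 48 in each of the NGP and SK-N-BE(2)c tables, which hold 57905 genes. SRSF8 was matched in the IMR32 table alone. Every matched member had a mean of at least 10 normalized counts in its line and was tested.

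RNA sequencing was done in the neuroblastoma lines NGP, SK-N-BE(2)c and IMR32 after transfection with 100 nM of an antisense oligonucleotide (ASO). ASOs are short modified nucleic acids that pair with an RNA. ASO1, ASO2 and ASO10 were directed at the long noncoding RNA NESPR, and NCA was the negative control ASO. IMR32 had 4 libraries each of NCA, ASO1 and ASO2. NGP and SK-N-BE(2)c had 3 libraries each of NCA, ASO2 and ASO10. Every group carried the transfection reagent and an oligonucleotide, so no untreated cells enter the comparisons. Each group is 1 established line in culture, and nothing in the labels says whether its libraries came from separate cultures, so the p-values measure the spread between these libraries, which may be technical. For NGP and SK-N-BE(2)c the data columns of the control libraries carry 2 spellings, NCA for replicate 1 and NCA2 for replicates 2 and 3. The sample titles place all of them in the NCA group, and whether a second control oligonucleotide was used is not stated there.

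Splicing joins exons after the branch point factor SF1 and the U2AF1 and U2AF2 subunits mark the 3′ end of an intron and the SF3 proteins of the U2 particle replace SF1 there. SR proteins (the SRSF and TRA2 genes) bind exons and mostly favour their inclusion, while many HNRNP proteins bind introns or exons and often oppose it. CLK kinases phosphorylate SR proteins, and SON, SRRM1 and SRRM2 reside in nuclear speckles, where splicing factors are stored. In neurons, SRRM4 promotes inclusion of microexons, PTBP2 takes over from PTBP1 as neurons differentiate, and the NOVA, RBFOX and ELAVL proteins shape neuronal exons and stabilize neuronal messages. Many of these genes carry exons that lead their own transcripts to decay, and gene-level counts do not show which isoform was made.

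Promoter sequence was examined because many members moved together. The 250 bases before each RefSeq transcription start (GRCh38.p14) were on file for 43 of the 49 members. RBFOX2, ELAVL3, SRSF2, TRA2A, HNRNPA1 and SF3B3 were without an entry. Of the 43, 27 had 1 start and the others more, while 35116 windows were on file for 27305 genes. A gene is counted where any of its windows holds the motif. Genes with more starts had more bases searched, and the shares were not adjusted for that. Searched on both strands, the GC box GGGCGG stood in 28 of the 43 members (65.1%) and in 46.2% of 27305 genes, and the CCAAT box (CCAAT) in 20 members (46.5%) against 37.0% of genes. The ETS core CCGGAA was in 11 members (25.6%) against 17.2%, and the E-box CACGTG in 7 members (16.3%) against 7.73%: CLK2, CLK4, HNRNPA3, HNRNPD, HNRNPDL, HNRNPM and SF3B1. A TATAAA box was in 7 members (16.3%, all genes 13.0%) and GAANNTTC, a heat shock element pair, in 4 (9.30%, all genes 7.05%). No member window held the letters of the cAMP response element TGACGTCA (2.03% of genes) or the amino acid response element TGATGNAA (3.89%). The windows of 4 genes on which the comparisons turn are shown: CLK2, the kinase gene that fell with ASO1 in IMR32 and rose with the ASOs used in the other lines, SRRM4 and PTBP2, neuronal regulators that moved in opposite directions with ASO2 in SK-N-BE(2)c and NGP, and HNRNPR, an HNRNP gene that rose with ASO2 and fell with ASO10. Capitals mark the motifs named above, and each is written 5′ to 3′ on the gene's strand.
CLK2, chr1:155273505-155273754, minus strand: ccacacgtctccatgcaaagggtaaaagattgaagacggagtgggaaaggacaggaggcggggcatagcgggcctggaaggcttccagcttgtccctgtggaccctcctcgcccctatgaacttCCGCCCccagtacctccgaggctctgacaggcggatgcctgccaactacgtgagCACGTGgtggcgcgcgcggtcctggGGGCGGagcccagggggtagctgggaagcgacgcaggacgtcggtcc
SRRM4, chr12:118981291-118981490, plus strand (bases 250 to 51 before the start): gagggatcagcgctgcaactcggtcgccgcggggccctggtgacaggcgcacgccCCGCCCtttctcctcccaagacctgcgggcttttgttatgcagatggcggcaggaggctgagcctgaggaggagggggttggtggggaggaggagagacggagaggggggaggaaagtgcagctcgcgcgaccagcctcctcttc
PTBP2, chr1:96722388-96722637, plus strand: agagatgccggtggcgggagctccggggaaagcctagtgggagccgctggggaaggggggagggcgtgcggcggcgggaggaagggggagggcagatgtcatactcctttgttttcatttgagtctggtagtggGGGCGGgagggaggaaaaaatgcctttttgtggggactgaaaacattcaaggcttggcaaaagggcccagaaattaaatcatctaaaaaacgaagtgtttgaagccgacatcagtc
HNRNPR, chr1:23344285-23344534, minus strand: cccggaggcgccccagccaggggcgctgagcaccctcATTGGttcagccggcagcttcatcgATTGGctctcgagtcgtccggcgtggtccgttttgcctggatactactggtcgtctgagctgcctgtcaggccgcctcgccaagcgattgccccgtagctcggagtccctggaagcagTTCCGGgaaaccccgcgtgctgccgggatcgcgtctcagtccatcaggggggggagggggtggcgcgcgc
CLK2 holds 2 GC boxes and 1 E-box, SRRM4 and PTBP2 hold 1 GC box each, and HNRNPR holds 2 CCAAT boxes and 1 ETS core. The GC content ranges from 55.2% in the PTBP2 window to 68.0% in that of HNRNPR.

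The reads behind the tables numbered 9393587 to 13932379 for IMR32, 11591178 to 13795561 for NGP and 11497829 to 15060356 for SK-N-BE(2)c. Markers of adrenergic neuroblastoma cells were present: all 11 examined had a mean of at least 10 normalized counts over the libraries of every line. Mesenchymal markers were present too: 7 of 10 reached that mean in IMR32, and 4 of 10 did in each of the other lines. Among the rest, TWIST2 was at 0 in every library. The Schwann cell gene SOX10 had a mean below 10 in every line. No table used here pairs the name NESPR with a gene identifier, so its own level was not analysed here and the knockdown is not reported. The tables of SK-N-BE(2)c and NGP had been scaled together and the IMR32 table on its own, and no test compares levels between IMR32 and the other lines. With NCA, SRSF10 averaged 3269 in the IMR32 table and 109.9 in that of NGP, and U2AF1 averaged 46.7 and 3038, so both genes are held uncertain in the table where they are low. In IMR32, replicate 1 of every group stood apart: library pairs of a group that include it differed by 2.41 to 6.48 times the variance that read sampling gives, and the other pairs by 1.23 to 2.20 times. In NGP such pairs differed by 2.22 to 6.84 times, and those of SK-N-BE(2)c by 2.35 to 5.00 times.

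Each ASO was compared with NCA in its own line by limma on log2(value + 1), and a gene is called where the Benjamini-Hochberg adjusted p over all genes tested in that line was under 0.05. Log2 fold changes below are on that scale, ± is the standard error for a fold change and the SD for a mean, and normalized counts are listed by replicate number. In IMR32, ASO1 raised 8 members and lowered 9 of 49, that is 34.7% called, where 28.0% of all 17309 genes tested were called, 13.6% higher and 14.4% lower. ASO2 raised 16 and lowered 3 in IMR32 (38.8% called), where 32.4% of all genes were called, 17.6% higher and 14.8% lower. Both total shares lie close to those of all genes. By direction, the 16 rises and 3 falls with ASO2 were more uneven than the 17.6% and 14.8% of all genes. Without replicate 1 of any IMR32 group, a choice made after seeing the data, ASO1 raised 12 and lowered 12 members and ASO2 raised 23 and lowered 6, where 32.9% and 38.1% of all genes were called.

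More of the list moved in the other lines, as did more of all genes. In NGP, ASO2 raised 33 of the 48 members and lowered 9 (87.5% called), against 58.7% of 14440 genes called, 30.6% higher and 28.1% lower. ASO10 raised 20 and lowered 12 there (66.7% called), against 54.4% of genes, 26.8% higher and 27.6% lower. In SK-N-BE(2)c, ASO2 raised 33 and lowered 8 (85.4% called), against 67.0% of 13556 genes, 33.6% higher and 33.4% lower. ASO10 raised 22 and lowered 14 (75.0% called), against 58.9% of genes, 27.8% higher and 31.1% lower. The same NCA libraries served both ASOs of a line, so the comparisons of a line are not independent of each other.

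Most of these changes were small. Called members whose log2 fold change reached 0.5 in either direction numbered 1 and 1 of 49 with ASO1 and ASO2 in IMR32, where 7.02% and 7.07% of all genes passed that size. They numbered 9 with ASO2 and 7 with ASO10 in NGP (31.8% and 28.9% of all genes), and 20 and 10 in SK-N-BE(2)c (40.3% and 29.9% of all genes). The median over the members was 0.05 and 0.11 with ASO1 and ASO2 in IMR32, 0.22 and 0.07 with ASO2 and ASO10 in NGP, and 0.32 and 0.06 in SK-N-BE(2)c, where the median of all genes lay between -0.03 and 0.01 in each of the 6 comparisons. Rescaling every library to 1 total moved the median of all genes from -0.02 to -0.15 for ASO2 in SK-N-BE(2)c and by under 0.1 in the other comparisons against NCA. Under that scaling 31 members were called higher and 11 lower in SK-N-BE(2)c with ASO2, where 3503 of 13574 genes were higher and 5622 lower. In NGP with ASO2 it left 25 members higher and 10 lower, against 33 and 9, where 3664 of 14440 genes were higher and 4694 lower.

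**Figure D1:**
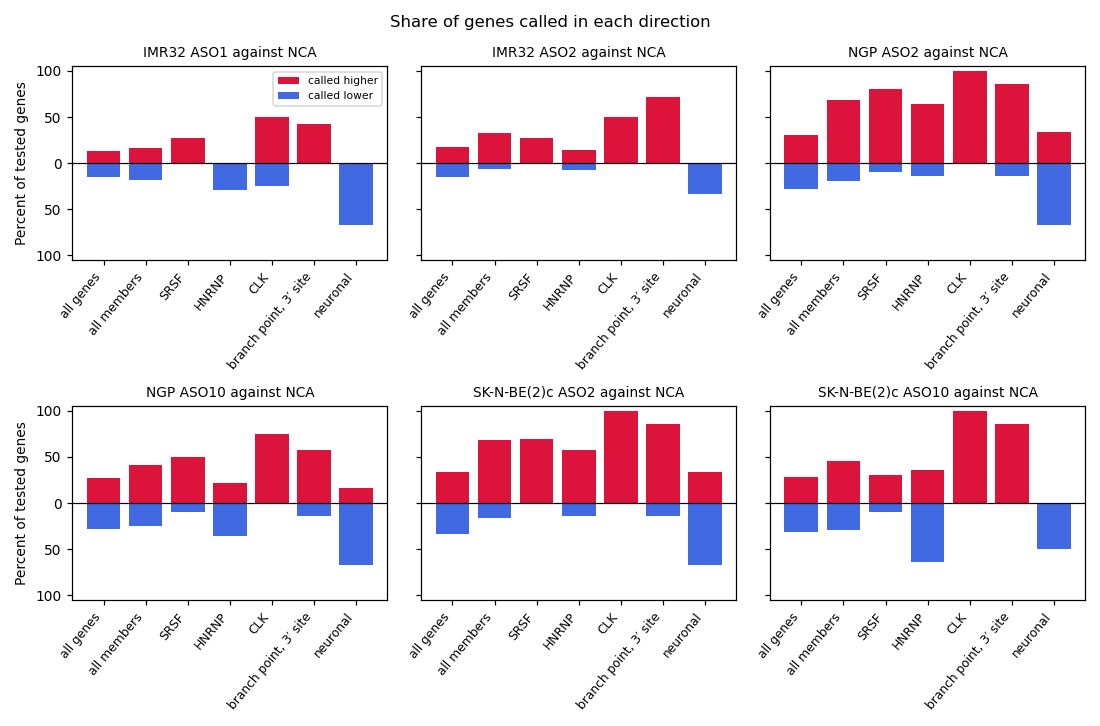
Share of tested genes called higher (above 0) and lower (below 0), in percent, for all genes, all members and 5 of the 8 member groups, 1 panel for each ASO and line. In the NGP and SK-N-BE(2)c panels for ASO2, all 4 CLK kinases stand above 0 while 4 of the 6 neuronal proteins stand below.

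The libraries of an ASO and of NCA did not overlap for 17 members with ASO1 and 22 with ASO2 in IMR32 (27.6% and 30.4% of all genes). This held for 39 with ASO2 and 32 with ASO10 in NGP (62.4% and 59.1% of all genes), and for 43 and 38 in SK-N-BE(2)c (69.3% and 64.7% of all genes). All 49 members were called at least once in the 6 comparisons against NCA, as were 94.8% of the 11594 genes tested in all of them. Of the members 27 were called higher at least once and never lower (33.0% of those genes), and 9 lower at least once and never higher (33.9%): HNRNPA2B1, HNRNPA3, HNRNPDL, HNRNPU, RBFOX2, ELAVL2, ELAVL4, NOVA1 and SRRM4. The remaining 13 were called higher in some and lower in others (27.9%). U2AF2 was the 1 member called higher in all 6 comparisons (3.05%). Over the SK-N-BE(2)c and NGP comparisons, 14 members were higher with both ASOs in both lines (9.73% of 12637 genes), and 3 were lower in all 4 comparisons (9.23%): RBFOX2, ELAVL4 and NOVA1. Of these, NOVA1 in NGP reached the mean of at least 10 only with its NCA libraries counted, so that minimum favoured its falls there.

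**Figure D2:**
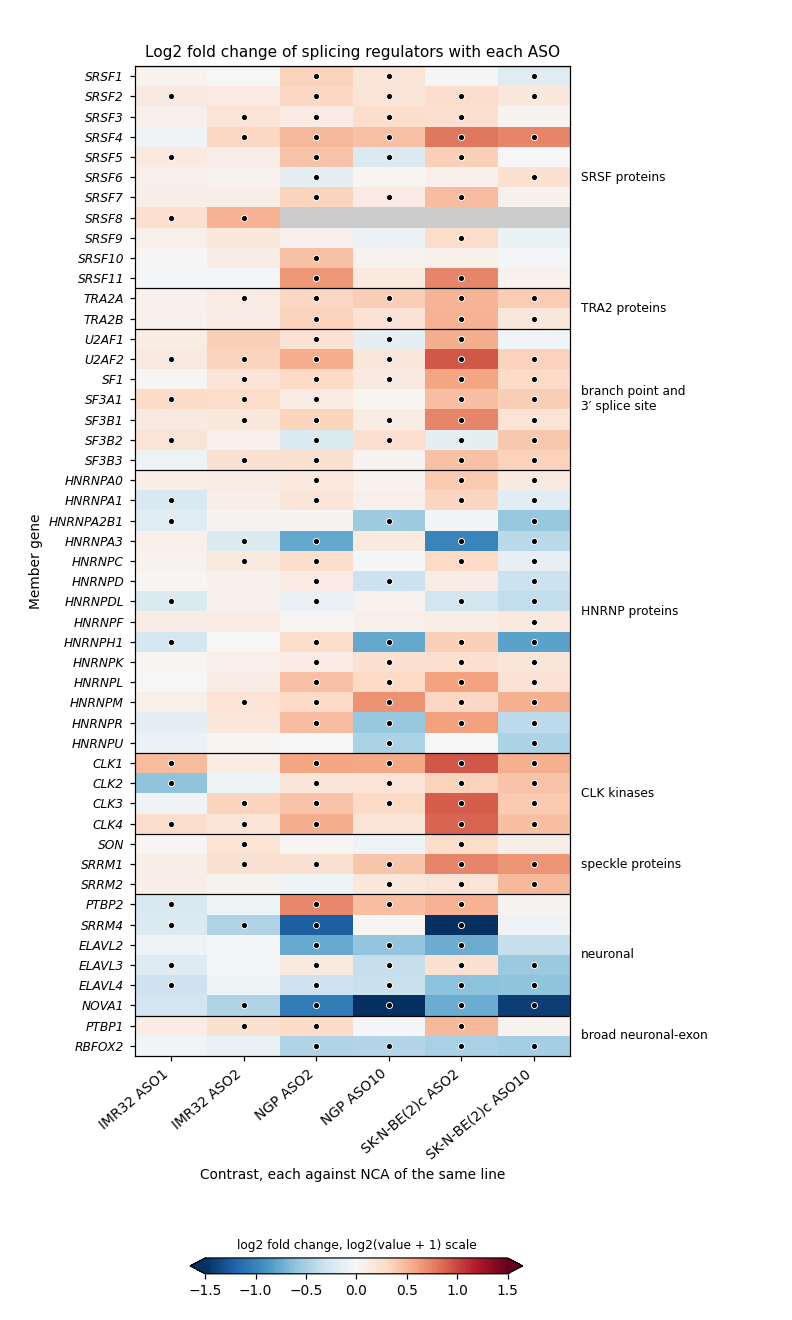
Log2 fold change of every member (rows, by group) with each ASO against NCA of its line (columns), on the log2(value + 1) scale, with dots on the members called at an adjusted p under 0.05. SRRM4 and NOVA1 hold the lowest values, and among the HNRNP rows HNRNPH1 and HNRNPR are above 0 with ASO2 and below 0 with ASO10 in the columns of NGP and of SK-N-BE(2)c.

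The CLK kinases phosphorylate the arginine-serine repeats of SR proteins and release them from speckles. All 4 CLK genes rose with ASO2 in both SK-N-BE(2)c and NGP (33.6% and 30.6% of all genes). With ASO10 all 4 rose in SK-N-BE(2)c (27.8% of all genes) and 3 of 4 in NGP (26.8%). In IMR32 ASO1 raised CLK1 and CLK4 and lowered CLK2 (all genes 13.6% higher and 14.4% lower), while ASO2 raised CLK3 and CLK4 (17.6%). The median log2 fold change of the 4 genes was 0.49 with ASO2 and 0.25 with ASO10 in NGP, and 0.89 and 0.43 in SK-N-BE(2)c.

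CLK1 (ENSG00000013441) had normalized counts of 1241, 1303, 1292 and 1308 with NCA, 1714, 1978, 1892 and 1609.9 with ASO1, and 1386, 1370.1, 1427 and 1395 with ASO2 in IMR32. In that line the ASO1 libraries lay above all others, with a log2 fold change of 0.48 ± 0.06 (SE, adjusted p = 1.88e-06), and the ASO2 libraries lay between them and NCA, at 0.12 ± 0.06 (SE, adjusted p = 0.111), which passed the threshold when only these groups were fitted (adjusted p = 0.0488). In NGP the CLK1 counts were 1212, 1167 and 1347 with NCA, 1965, 1809.8 and 1835 with ASO2, and 1891, 1755 and 1916 with ASO10. Every ASO2 and ASO10 library of NGP was above every NCA library, with 0.59 ± 0.06 (SE, adjusted p = 1.57e-08) and 0.58 ± 0.06 (SE, adjusted p = 2.57e-08). The SK-N-BE(2)c libraries held CLK1 at 1253, 1439.7 and 1498 with NCA, 2605, 2568 and 2831 with ASO2, and 2035, 1989 and 2002 with ASO10. Here both ASO groups were above NCA and ASO2 was above ASO10, with 0.94 ± 0.06 (SE, adjusted p = 3.06e-13) for ASO2, 0.53 ± 0.06 (SE, adjusted p = 4.09e-08) for ASO10 and 0.41 ± 0.06 (SE, adjusted p = 2.05e-06) between them.

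CLK2 (ENSG00000176444) was the kinase gene called lower in 1 comparison, with ASO1 in IMR32, and higher in the other lines, where ASO1 was not used. Its normalized counts in IMR32 were 1576, 1803, 1852 and 1837 with NCA, 1053, 1158, 1208 and 1229.8 with ASO1, and 1532, 1679.8, 1807 and 1673 with ASO2. The ASO1 libraries were all below the NCA and ASO2 libraries, and the log2 fold change was -0.60 ± 0.06 (SE, adjusted p = 4.54e-07), while the ASO2 and NCA libraries overlapped (-0.08 ± 0.06 (SE, adjusted p = 0.362)). In NGP the counts were 1364, 1313 and 1403 with NCA, 1538, 1586 and 1521 with ASO2, and 1584, 1554 and 1561 with ASO10. Both ASO groups lay above NCA there, by 0.19 ± 0.06 (SE, adjusted p = 0.00636) with ASO2 and 0.20 ± 0.06 (SE, adjusted p = 0.00367) with ASO10, although the ASO2 call was lost with libraries rescaled to 1 total (adjusted p = 0.0773). For SK-N-BE(2)c CLK2 counted 1243, 1245 and 1255 with NCA, 1603, 1608 and 1528 with ASO2, and 1603, 1712 and 1708 with ASO10. Again no ASO library reached down to NCA, and the rise was 0.34 ± 0.06 (SE, adjusted p = 7.92e-06) with ASO2 and 0.42 ± 0.06 (SE, adjusted p = 3.95e-07) with ASO10. CLK2 overlaps HCN3, a gene of the opposite strand, and whether the counting used strand is not given in the sources used here.

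CLK3 (ENSG00000179335) counted 794, 865, 867 and 894 with NCA, 743, 818, 878 and 873 with ASO1, and 975, 1137, 1114 and 1103 with ASO2 in IMR32. Only the ASO2 libraries of that line stood apart from NCA, by 0.34 ± 0.06 (SE, adjusted p = 0.000363), and ASO1 gave -0.05 ± 0.06 (SE, adjusted p = 0.613). NGP libraries had CLK3 at 888, 941 and 861 with NCA, 1206, 1154 and 1249 with ASO2, and 1139, 1094 and 1086 with ASO10. Both ASO groups were above NCA without overlap, by 0.42 ± 0.06 (SE, adjusted p = 3.19e-06) for ASO2 and 0.30 ± 0.06 (SE, adjusted p = 0.000258) for ASO10. The counts of SK-N-BE(2)c were 987, 1001 and 956 with NCA, 1882, 1867 and 1768 with ASO2, and 1185, 1355 and 1319 with ASO10. The ASO2 rise of 0.91 ± 0.06 (SE, adjusted p = 5.6e-13) was larger than the ASO10 rise of 0.39 ± 0.06 (SE, adjusted p = 5.75e-06), and the groups did not overlap. Like CLK2, CLK3 overlaps a gene of the opposite strand, EDC3, so the same limit on strand holds for it.

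CLK4 (ENSG00000113240), the least deeply counted of the 4 genes in IMR32, gave 267, 244, 265 and 257 with NCA, 291, 332, 328 and 292 with ASO1, and 292, 277, 295 and 331 with ASO2 there. ASO1 and ASO2 libraries were both above NCA, by 0.27 ± 0.07 (SE, adjusted p = 0.00883) and 0.21 ± 0.07 (SE, adjusted p = 0.0331). The ASO2 call in IMR32 was lost when NCA replicate 2 or 4 or ASO2 replicate 3 or 4 was left out (adjusted p between 0.0506 and 0.126), with DESeq2 on the recovered reads (adjusted p = 0.0763), with libraries rescaled to 1 total (0.0833) and without the filter on low values (0.0658). In NGP the CLK4 counts were 324, 303 and 309.7 with NCA, 436, 428 and 512 with ASO2, and 384, 318 and 378 with ASO10. The ASO2 libraries were above NCA (0.55 ± 0.10 (SE, adjusted p = 2.55e-05)) while ASO10 overlapped it (0.20 ± 0.10 (SE, adjusted p = 0.0813)). SK-N-BE(2)c gave 298, 290.4 and 291 with NCA, 505, 538 and 577 with ASO2, and 396, 408 and 395 with ASO10. Both ASO groups were above NCA in that line, by 0.88 ± 0.08 (SE, adjusted p = 3.54e-10) and 0.45 ± 0.08 (SE, adjusted p = 4.44e-05).

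**Figure D3:**
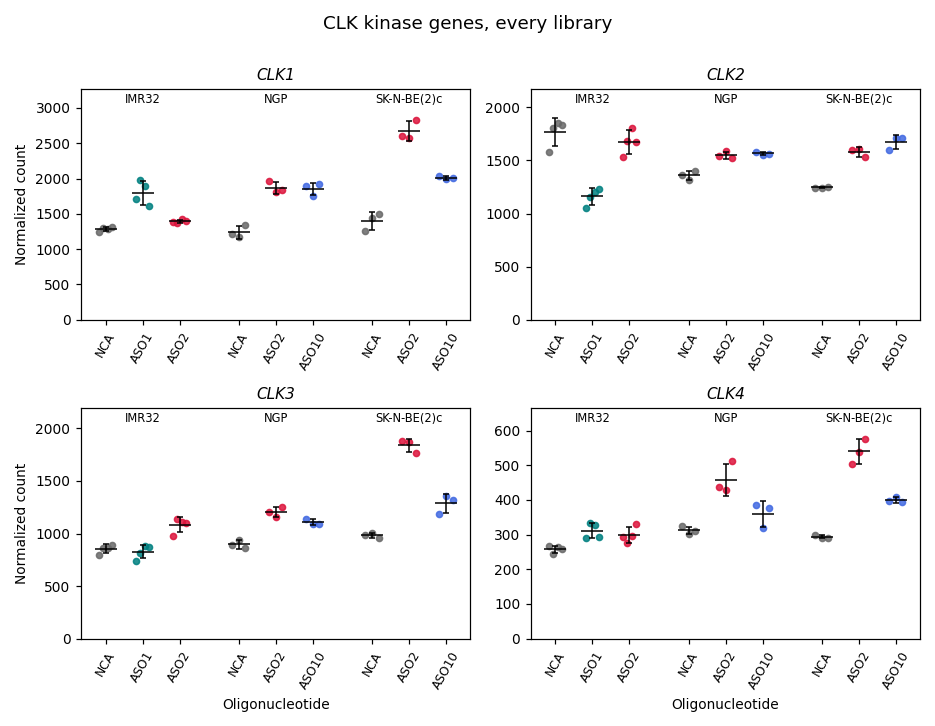
Normalized counts of the 4 CLK genes, 1 panel for each gene, with points for libraries and bars for the mean ± SD, by line and oligonucleotide. CLK2 with ASO1 in IMR32 is the 1 group below its NCA libraries without overlap, and within SK-N-BE(2)c CLK1, CLK3 and CLK4 are highest with ASO2.

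Among the SR proteins, most called changes were rises. Of the SRSF genes, 3 of 11 rose in IMR32 with each of ASO1 and ASO2 (13.6% and 17.6% of all genes). In NGP 8 of 10 rose and 1 fell with ASO2 (all genes 30.6% and 28.1%), and 5 rose and 1 fell with ASO10 (26.8% and 27.6%). With ASO2 7 of 10 rose in SK-N-BE(2)c (33.6% of all genes), while 3 rose and 1 fell with ASO10 (27.8% and 31.1%). Those 3 rises with ASO10 lie close to the share of all genes. In that line with libraries rescaled to 1 total, 7 rose and 1 fell with ASO2 (all genes 3503 and 5622 of 13574). With ASO10 3 rose and 2 fell under that scaling (all genes 3541 and 4460). The SRSF median was 0.34 and 0.13 with ASO2 and ASO10 for NGP, against 0.27 and 0.05 for SK-N-BE(2)c. Both TRA2 genes rose with both ASOs in SK-N-BE(2)c and NGP, and TRA2A alone was called in IMR32, with ASO2.

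SRSF4 (ENSG00000116350), an SR protein that activates exons, had the largest mean change of its family. In IMR32 it counted 2239, 2384, 2395 and 2491 with NCA, 2208, 2261, 2202 and 2537 with ASO1, and 3002, 2969.9, 2893 and 2936 with ASO2. ASO2 libraries were all above NCA (0.31 ± 0.05 (SE, adjusted p = 9.28e-05)) and ASO1 libraries overlapped NCA (-0.05 ± 0.05 (SE, adjusted p = 0.515)). In NGP SRSF4 stood at 2661, 2798 and 2685 with NCA, 3723, 3776 and 3883 with ASO2, and 3779, 3720.1 and 3563 with ASO10. The rises with ASO2 and ASO10 there were 0.48 ± 0.05 (SE, adjusted p = 7.6e-09) and 0.44 ± 0.05 (SE, adjusted p = 3.9e-08), and their difference was 0.04 ± 0.05 (SE, adjusted p = 0.489). SK-N-BE(2)c libraries gave 1691, 1811 and 1831 with NCA, 2947, 3040.3 and 3218 with ASO2, and 2849, 3100.3 and 2932 with ASO10. Again both groups were above NCA, by 0.79 ± 0.06 (SE, adjusted p = 9.6e-13) and 0.74 ± 0.06 (SE, adjusted p = 7.35e-12), and the ASOs overlapped each other.

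TRA2A (ENSG00000164548), which binds purine-rich exon enhancers, counted 1306, 1431, 1421 and 1421 with NCA, 1424, 1459.9, 1495 and 1433 with ASO1, and 1523, 1516, 1523 and 1535 with ASO2 in IMR32. The ASO2 difference was 0.13 ± 0.04 (SE, adjusted p = 0.0303), and it was lost when NCA replicate 1 or ASO2 replicate 2, 3 or 4 was left out (adjusted p between 0.0534 and 0.104), without replicate 1 of any IMR32 group (adjusted p = 0.055), without the filter on low values (adjusted p = 0.0991) and with libraries rescaled to 1 total (0.124). In NGP the counts were 1623, 1514 and 1563 with NCA, 1990.4, 1881 and 1951 with ASO2, and 2088, 1945 and 2057 with ASO10. ASO2 raised it by 0.31 ± 0.06 (SE, adjusted p = 4.1e-05) and ASO10 by 0.37 ± 0.06 (SE, adjusted p = 3.78e-06), with no overlap with NCA. SK-N-BE(2)c had 1168, 1349 and 1229.8 with NCA, 1727, 1705 and 1893 with ASO2, and 1575, 1654 and 1644 with ASO10. Both groups lay above NCA by 0.51 ± 0.06 (SE, adjusted p = 5.21e-08) and 0.38 ± 0.06 (SE, adjusted p = 8.27e-06), and the ASOs did not differ past the threshold (0.13 ± 0.06 (SE, adjusted p = 0.0801)).

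SRSF11 was the SRSF gene with the largest rise in NGP with ASO2, 0.65 ± 0.07 (SE, adjusted p = 3.06e-08), and it rose by 0.73 ± 0.06 (SE, adjusted p = 1.01e-11) with ASO2 in SK-N-BE(2)c. With ASO10 it gave 0.15 ± 0.07 (SE, adjusted p = 0.0838) for NGP and 0.05 ± 0.06 (SE, adjusted p = 0.434) for SK-N-BE(2)c. The test between the ASOs found SRSF11 higher with ASO2 in both lines, by 0.50 ± 0.07 (SE, adjusted p = 1.67e-06) and 0.67 ± 0.06 (SE, adjusted p = 5.16e-11). SRSF8, measured in IMR32 alone, rose by 0.25 ± 0.07 (SE, adjusted p = 0.0109) with ASO1 and 0.52 ± 0.07 (SE, adjusted p = 1.92e-05) with ASO2. SRSF5 moved in opposite directions in NGP, by 0.42 ± 0.05 (SE, adjusted p = 2.62e-07) with ASO2 and -0.22 ± 0.05 (SE, adjusted p = 0.00127) with ASO10.

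The factors that recognise the branch point and 3′ splice site rose in most comparisons. Of 7, ASO1 and ASO2 raised 3 and 5 in IMR32 (13.6% and 17.6% of all genes). In NGP ASO2 raised 6 and lowered 1 (all genes 30.6% and 28.1%), and ASO10 raised 4 and lowered 1 (26.8% and 27.6%). With ASO2 6 rose and 1 fell in SK-N-BE(2)c (all genes 33.6% and 33.4%), and with ASO10 6 rose (27.8%). The median of the 7 in SK-N-BE(2)c was 0.54 with ASO2 and 0.34 with ASO10.

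U2AF2 (ENSG00000063244), the U2AF subunit that binds the polypyrimidine tract, counted 1802, 1834, 1865 and 1899.8 with NCA, 2054, 1923, 2149 and 2008 with ASO1, and 2329, 2459, 2221 and 2288 with ASO2 in IMR32. It rose by 0.14 ± 0.05 (SE, adjusted p = 0.0343) with ASO1 and 0.33 ± 0.05 (SE, adjusted p = 2.68e-05) with ASO2. The ASO1 call was lost when NCA replicate 1, 2 or 3 or ASO1 replicate 3 or 4 was left out (adjusted p between 0.0541 and 0.124) and without the filter on low values (adjusted p = 0.0931). In NGP U2AF2 stood at 3660.3, 3771 and 3353 with NCA, 5141, 5186 and 5443 with ASO2, and 4157, 4191 and 3824 with ASO10. ASO2 libraries were the highest, with 0.55 ± 0.05 (SE, adjusted p = 3.3e-09) for ASO2 and 0.18 ± 0.05 (SE, adjusted p = 0.00743) for ASO10. SK-N-BE(2)c libraries counted 5864, 5409 and 5184 with NCA, 10583, 10386 and 10265 with ASO2, and 6919, 7073 and 6977 with ASO10. The order was the same there, with 0.93 ± 0.05 (SE, adjusted p = 3.38e-15) for ASO2 and 0.35 ± 0.05 (SE, adjusted p = 7.18e-07) for ASO10, and the ASOs differed by 0.57 ± 0.05 (SE, adjusted p = 5.14e-11).

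SF3B2, a subunit of the SF3B complex, was the 1 factor of this group that fell with ASO2 in both SK-N-BE(2)c and NGP. The changes were -0.22 ± 0.05 (SE, adjusted p = 0.000385) for NGP and -0.15 ± 0.05 (SE, adjusted p = 0.0159) for SK-N-BE(2)c, the second lost without ASO2 replicate 1 (adjusted p = 0.0566). ASO10 raised it in both lines, by 0.25 ± 0.05 (SE, adjusted p = 7.75e-05) and 0.41 ± 0.05 (SE, adjusted p = 1.41e-07). SF3B1, the SF3B subunit that contacts the branch point, rose most with ASO2 in SK-N-BE(2)c, by 0.74 ± 0.05 (SE, adjusted p = 2.03e-13). U2AF1 in IMR32 is uncertain, since its counts there are low and near-identical copies of a gene can split its reads.

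The speckle proteins SON, SRRM1 and SRRM2 organise the nuclear bodies that hold splicing factors. SRRM1 rose with ASO2 in IMR32 (0.23 ± 0.04 (SE, adjusted p = 0.000559)) and with both ASOs in NGP (0.23 ± 0.06 (SE, adjusted p = 0.00095) and 0.42 ± 0.06 (SE, adjusted p = 5.86e-07)) and SK-N-BE(2)c (0.74 ± 0.06 (SE, adjusted p = 9.41e-12) and 0.66 ± 0.06 (SE, adjusted p = 1.54e-10)). SRRM2 rose most with ASO10 in SK-N-BE(2)c, by 0.48 ± 0.05 (SE, adjusted p = 3.76e-09). SON was called higher with ASO2 in IMR32 (0.21 ± 0.05 (SE, adjusted p = 0.00214)) and SK-N-BE(2)c (0.27 ± 0.05 (SE, adjusted p = 1.01e-05)), and its NGP values were 0.02 and -0.06. SON shares its locus with GART and DONSON on the opposite strand, and SRRM2 with ELOB.

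Called rises outnumbered falls among the HNRNP genes with ASO2 and falls outnumbered rises with ASO10, in both SK-N-BE(2)c and NGP. With ASO2, 9 of 14 rose and 2 fell in NGP (all genes 30.6% and 28.1%), and 8 rose and 2 fell in SK-N-BE(2)c (33.6% and 33.4%). With ASO10, 3 rose and 5 fell in NGP (all genes 26.8% and 27.6%), and 5 rose and 9 fell in SK-N-BE(2)c (27.8% and 31.1%). Falls thus outnumbered rises with ASO10 over all genes too. With libraries rescaled to 1 total, ASO2 raised 5 and lowered 2 in NGP (all genes 3664 and 4694 of 14440). In SK-N-BE(2)c it then raised 8 and lowered 4 (all genes 3503 and 5622 of 13574). In IMR32 ASO1 lowered 4 of the 14 (14.4% of all genes), and ASO2 raised 2 and lowered 1 (17.6% and 14.8%). Without replicate 1 of any IMR32 group, ASO1 lowered 6 (17.2% of all genes), and ASO2 raised 7 and lowered 1 (20.5% and 17.7%). Opposite calls with ASO2 and ASO10 were made for 3 of the 14 genes in NGP (8.52% of all genes). In SK-N-BE(2)c they were made for 4 of them (10.3% of all genes). HNRNPK, HNRNPL and HNRNPM rose with both ASOs in both lines. Tested directly, 7 genes were higher and 4 lower with ASO2 than with ASO10 in NGP (30.6% and 28.0% of all genes), and 9 were higher and 2 lower in SK-N-BE(2)c (34.6% and 30.8% of all genes).

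HNRNPH1 (ENSG00000169045), which binds G-rich sequence, gave the largest such difference. Its counts in IMR32 were 10204, 10288, 10319 and 10015 with NCA, 8659, 8649, 8003 and 8573 with ASO1, and 10719, 10056, 9903 and 10090.3 with ASO2. ASO1 libraries were below NCA (-0.27 ± 0.04 (SE, adjusted p = 9.77e-05)), and ASO2 libraries overlapped it (-0.0026 ± 0.04 (SE, adjusted p = 0.974)). In NGP HNRNPH1 counted 9318, 8865 and 9643 with NCA, 11095, 11016 and 11638 with ASO2, and 5506, 5143 and 5683 with ASO10. The 3 groups did not overlap, with ASO2 above NCA (0.28 ± 0.05 (SE, adjusted p = 2.08e-05)) and ASO10 below it (-0.77 ± 0.05 (SE, adjusted p = 1.26e-12)). SK-N-BE(2)c held 8129, 8542 and 8617 with NCA, 10601, 10526 and 11382 with ASO2, and 5188, 4612 and 4751 with ASO10. The same order was found, with 0.36 ± 0.05 (SE, adjusted p = 5.72e-07) for ASO2 and -0.80 ± 0.05 (SE, adjusted p = 3.13e-13) for ASO10. Between the ASOs the difference was 1.05 ± 0.05 (SE, adjusted p = 2.59e-15) for NGP and 1.16 ± 0.05 (SE, adjusted p = 5e-17) for SK-N-BE(2)c, the smallest adjusted p of any member in each.

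HNRNPA3 (ENSG00000170144), an RNA-transport and splicing protein of the HNRNPA group, fell with ASO2 in all 3 lines and with ASO10 in SK-N-BE(2)c. It counted 4206, 3852, 4062 and 3979 with NCA, 4577, 4161, 3940.2 and 4256 with ASO1, and 3939, 3377, 3335 and 3354 with ASO2 in IMR32. ASO2 gave -0.20 ± 0.06 (SE, adjusted p = 0.00881) in that line, with 1 library overlapping NCA, and ASO1 gave 0.07 ± 0.06 (SE, adjusted p = 0.379). NGP libraries had 4915, 4104 and 5324 with NCA, 2703, 3022 and 2646 with ASO2, and 5299, 5047 and 5444 with ASO10. ASO2 libraries were all lower than NCA (-0.77 ± 0.07 (SE, adjusted p = 8.52e-10)), while ASO10 overlapped NCA (0.15 ± 0.07 (SE, adjusted p = 0.0766)) and was called higher by edgeR (adjusted p = 0.0455). HNRNPA3 stood at 1616, 1639 and 1842 with NCA, 839.8, 911 and 805 with ASO2, and 1439, 1156 and 1252 with ASO10 in SK-N-BE(2)c. Both ASO groups were below NCA, with -0.99 ± 0.07 (SE, adjusted p = 2.61e-12) and -0.41 ± 0.07 (SE, adjusted p = 2.88e-05). The annotation names 16 processed pseudogenes of HNRNPA3 and 74 of HNRNPA1, so part of their reads may have been placed elsewhere, and both genes are uncertain in that respect.

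HNRNPR, whose promoter is shown above, rose with ASO2 by 0.46 ± 0.05 (SE, adjusted p = 1.21e-08) for NGP and 0.61 ± 0.05 (SE, adjusted p = 6.31e-11) for SK-N-BE(2)c. ASO10 lowered it by 0.57 (adjusted p = 3.16e-10) and by 0.40 (adjusted p = 3.21e-07) in these lines. HNRNPA2B1, the most abundant member per length, fell with ASO10 in the same lines, by 0.53 (adjusted p = 1.88e-10) and 0.57 (adjusted p = 3.34e-09). With ASO2 it gave 0.04 and -0.04, the second called lower with libraries rescaled to 1 total (adjusted p = 0.0104). HNRNPM rose with both ASOs and more with ASO10, by 0.67 ± 0.05 (SE, adjusted p = 1.7e-11) for NGP and 0.53 ± 0.06 (SE, adjusted p = 3.02e-09) for SK-N-BE(2)c. HNRNPA2B1 overlaps CBX3 and NFE2L3 of the opposite strand.

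**Figure D4:**
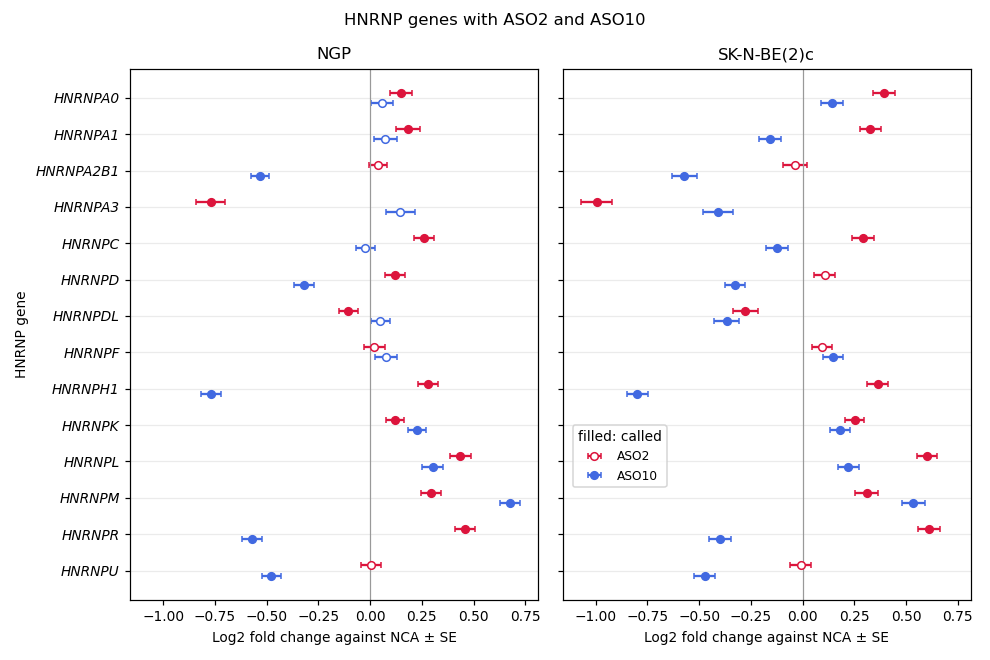
Log2 fold change ± SE of the 14 HNRNP genes against NCA with ASO2 and ASO10 in SK-N-BE(2)c and NGP, filled symbols for genes called. HNRNPH1 and HNRNPR lie to the right of 0 with ASO2 and to the left with ASO10 in both lines.

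The neuronal RNA-binding proteins had more called falls than rises in every comparison against NCA. Of 6, ASO1 lowered 4 and ASO2 lowered 2 in IMR32 (14.4% and 14.8% of all genes). Without replicate 1 of any group there each lowered 4 (17.2% and 17.7%). ASO2 lowered 4 and raised 2 in both SK-N-BE(2)c (all genes 33.4% and 33.6%) and NGP (28.1% and 30.6%). ASO10 lowered 4 and raised 1 in NGP (all genes 27.6% and 26.8%), and lowered 3 in SK-N-BE(2)c (31.1%). The NGP falls include NOVA1, which reached a mean of 10 there only with its NCA libraries counted. With libraries rescaled to 1 total, ASO2 raised 1 and lowered 4 in each of these lines. Under that scaling 3664 of 14440 genes were higher and 4694 lower in NGP, and 3503 of 13574 and 5622 in SK-N-BE(2)c. The median of the 6 genes was -0.53 and -0.34 in NGP and -0.68 and -0.45 in SK-N-BE(2)c with ASO2 and ASO10.

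Markers of cell state moved in the same libraries. Of 11 adrenergic neuroblastoma markers, 3 fell with each ASO in IMR32, 6 and 9 fell with ASO2 and ASO10 in NGP, and 7 and 8 in SK-N-BE(2)c. Of all genes 14.4% and 14.8% fell with ASO1 and ASO2 in IMR32, and 28.1% and 27.6% with ASO2 and ASO10 in NGP. The shares in SK-N-BE(2)c were 33.4% and 31.1%. Only falls are counted here, for these and for the neuron markers below, so the counts do not show how many markers rose. The summed level of the adrenergic markers ran from 32034 to 33535 with NCA and from 29417 to 32174 with ASO1 in IMR32, and from 30435 to 32541 with ASO2. In NGP it ran from 53881 to 57161 with NCA, from 49230.1 to 51093 with ASO2 and from 43967 to 46489 with ASO10. SK-N-BE(2)c had 58104 to 65070.3 with NCA, 52923 to 56655 with ASO2 and 51635 to 52805 with ASO10. Of the 8 post-mitotic neuron markers, 6 and 4 fell with ASO1 and ASO2 in IMR32, and of the 7 measured in the other lines 2 and 4 fell with ASO2 and ASO10 in NGP, while SK-N-BE(2)c had 4 fall with each. Their sum ran from 15125 to 15849 with NCA, 11297 to 12696 with ASO1 and 13702 to 15169 with ASO2 in IMR32. It ran from 15603 to 18413 with NCA, 16875 to 16982 with ASO2 and 15756 to 16532 with ASO10 in NGP, and from 23993 to 26616, 21307 to 23072 and 21468 to 22950 in SK-N-BE(2)c. The neuronal nuclear gene RBFOX3 was below 10 in NGP and at 0 in every SK-N-BE(2)c library. The summed mesenchymal markers rose beside them in NGP, from 9884 to 10034 with NCA, 13697 to 14611 with ASO2 and 11225 to 11920.3 with ASO10, while TWIST2 stayed at 0 and PRRX1 below 10. That sum in SK-N-BE(2)c ran from 2745 to 2911 with NCA, 3792 to 3875 with ASO2 and 3558 to 3805 with ASO10. IMR32 had 3163 to 3634 with NCA, 3369 to 3865 with ASO1 and 4244 to 4478 with ASO2. These sums follow their most abundant genes, since 7 of the 10 mesenchymal markers reached a mean of 10 in IMR32 and 4 in each other line. The 5 immune markers summed to 26.7 to 43.4 with NCA, 38.5 to 39.0 with ASO2 and 103 to 137 with ASO10 in NGP, with PTPRC and CD3E at 0. In SK-N-BE(2)c they summed to 28.3 to 31.3 with NCA, 39.8 to 58.9 with ASO2 and 45.0 to 51.6 with ASO10, with CD3E at 0, and in IMR32 to at most 15.2 in any library. The part of these markers in the neuronal changes was not tested, and in such bulk libraries fewer cells of a type and less RNA per cell cannot be told apart.

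SRRM4 (ENSG00000139767), the activator of neuronal microexons, fell with ASO2 in all 3 lines. In IMR32 its counts were 2039, 2285, 2309.7 and 2288 with NCA, 1876, 2058, 1993 and 1779.5 with ASO1, and 1525, 1601, 1710.3 and 1667 with ASO2. ASO2 libraries were all below NCA (-0.46 ± 0.06 (SE, adjusted p = 4.82e-06)), and ASO1 gave -0.21 ± 0.06 (SE, adjusted p = 0.00666) with overlap. In NGP it counted 948, 961 and 1068 with NCA, 383, 493 and 395 with ASO2, and 1068, 968 and 1003 with ASO10. ASO2 lowered SRRM4 to 0.425 of the NCA level there (-1.23 ± 0.08 (SE, adjusted p = 7.06e-12)), and ASO10 overlapped NCA (0.03 ± 0.08 (SE, adjusted p = 0.78)). SK-N-BE(2)c libraries had 834, 782 and 727 with NCA, 269, 272 and 254 with ASO2, and 744, 791 and 724 with ASO10. The ASO2 level was 0.34 of NCA (-1.55 ± 0.08 (SE, adjusted p = 8.72e-16)) and ASO10 again overlapped NCA (-0.05 ± 0.08 (SE, adjusted p = 0.592)). The value with ASO2 minus that with ASO10 was -1.26 ± 0.08 (SE, adjusted p = 2.96e-12) for NGP and -1.50 ± 0.08 (SE, adjusted p = 1.23e-15) for SK-N-BE(2)c.

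NOVA1 (ENSG00000139910), a splicing regulator of neurons, was lowest of all members per length in IMR32 and NGP. Its counts were 87.3, 112, 93.4 and 112 with NCA, 69.4, 85.9, 85.3 and 90.2 with ASO1, and 84.2, 73.4, 70.1 and 66.3 with ASO2 in IMR32. The ASO2 fall of -0.45 ± 0.12 (SE, adjusted p = 0.00702) was called and the ASO1 difference of -0.29 ± 0.12 (SE, adjusted p = 0.0848) was not. In NGP NOVA1 counted 24.6, 29.2 and 18.5 with NCA, 6.50, 11.8 and 16.7 with ASO2, and 8.15, 5.71 and 6.90 with ASO10. ASO10 gave -1.65 ± 0.38 (SE, adjusted p = 0.000703) and ASO2 -1.05 ± 0.38 (SE, adjusted p = 0.0209). NOVA1 reached the mean of at least 10 in NGP only with its NCA libraries counted, so that minimum favoured a fall in both comparisons. The ASO2 call in NGP rests on few reads and was lost when ASO2 replicate 1 or NCA replicate 1 or 2 was left out (adjusted p between 0.0584 and 0.13) and without the filter on low values (adjusted p = 0.0759). The NOVA1 counts of SK-N-BE(2)c were 174, 183 and 179 with NCA, 101, 94.3 and 126 with ASO2, and 68.8, 48.1 and 89.5 with ASO10. Here the 3 groups did not overlap, with -0.75 ± 0.17 (SE, adjusted p = 0.000422) for ASO2, -1.41 ± 0.17 (SE, adjusted p = 7.2e-08) for ASO10 and 0.66 ± 0.17 (SE, adjusted p = 0.00147) between them.

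RBFOX2 (ENSG00000100320), a broadly expressed protein that binds GCAUG near alternative exons, counted 4012, 3798, 3739.6 and 3782 with NCA, 3888, 3684, 3661 and 3621 with ASO1, and 3709, 3610.2, 3403 and 3588 with ASO2 in IMR32. Neither ASO gave a call in that line (-0.05 ± 0.04 (SE, adjusted p = 0.475) for ASO1 and -0.10 ± 0.04 (SE, adjusted p = 0.0866) for ASO2), although every ASO2 library lay below every NCA library. ASO2 was called lower there with libraries rescaled to 1 total (adjusted p = 0.00668), with DESeq2 on the recovered reads (0.0483) and without replicate 1 of any group (0.0305). In NGP it stood at 5827, 6174 and 6618 with NCA, 4489, 4717 and 4365 with ASO2, and 4572, 4586 and 4566 with ASO10. Every ASO library was below every NCA library, with -0.45 ± 0.05 (SE, adjusted p = 3.15e-08) and -0.44 ± 0.05 (SE, adjusted p = 6.92e-08). SK-N-BE(2)c libraries gave 3712, 3776 and 3761 with NCA, 2547, 2793 and 2710.1 with ASO2, and 2739.7, 2447 and 2754 with ASO10. The fall was -0.48 ± 0.06 (SE, adjusted p = 1.34e-08) with ASO2 and -0.50 ± 0.06 (SE, adjusted p = 1.07e-08) with ASO10, and the difference between the ASOs was -0.02 ± 0.05 (SE, adjusted p = 0.794) for NGP and 0.02 ± 0.06 (SE, adjusted p = 0.758) for SK-N-BE(2)c.

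The ELAVL2, ELAVL3 and ELAVL4 proteins are neuronal relatives of HuR that bind AU-rich messages. ELAVL4 (ENSG00000162374) counted 2731, 2590.5, 2634 and 2540.2 with NCA, 2248, 2057, 2008 and 2177 with ASO1, and 2866, 2522, 2354 and 2323 with ASO2 in IMR32. ASO1 libraries were below NCA (-0.31 ± 0.06 (SE, adjusted p = 0.000485)) and ASO2 libraries overlapped it (-0.06 ± 0.06 (SE, adjusted p = 0.426)), although ASO2 was called lower without replicate 1 of any group (adjusted p = 0.0282). NGP libraries had ELAVL4 at 5535, 5110.3 and 6260.0 with NCA, 4648, 4639.6 and 4305 with ASO2, and 4365, 4355 and 4629 with ASO10. Both ASO groups lay below NCA, with -0.31 ± 0.06 (SE, adjusted p = 7.34e-05) and -0.34 ± 0.06 (SE, adjusted p = 3.17e-05). SK-N-BE(2)c libraries counted 1478, 1439.7 and 1534 with NCA, 986, 992 and 925 with ASO2, and 1029, 892 and 1019 with ASO10. Again both groups lay below NCA, with -0.62 ± 0.07 (SE, adjusted p = 3.58e-09) and -0.60 ± 0.07 (SE, adjusted p = 1.01e-08).

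ELAVL3 (ENSG00000196361) moved in opposite directions with the 2 ASOs. In IMR32 it counted 2842, 2741, 2893 and 2853 with NCA, 2615, 2412, 2392 and 2485 with ASO1, and 2880.4, 3015, 2646 and 2629 with ASO2. ASO1 lowered it there (-0.19 ± 0.05 (SE, adjusted p = 0.00536)), and ASO2 gave -0.02 ± 0.05 (SE, adjusted p = 0.768). In NGP ELAVL3 stood at 4596, 4871 and 4518 with NCA, 5099, 5336 and 5011 with ASO2, and 3669, 3879 and 3452 with ASO10. ASO10 libraries were the lowest (-0.35 ± 0.05 (SE, adjusted p = 3.51e-06)) and ASO2 libraries the highest (0.14 ± 0.05 (SE, adjusted p = 0.0199)). SK-N-BE(2)c counted 3389, 3116 and 2749.7 with NCA, 3808, 3638 and 3346 with ASO2, and 2251, 1956 and 2089.7 with ASO10. ASO10 lowered ELAVL3 by 0.55 (adjusted p = 5.74e-08), and ASO2 gave 0.22 ± 0.07 (SE, adjusted p = 0.00442) with overlap. The rises with ASO2 were lost with libraries rescaled to 1 total, with adjusted p = 0.228 for NGP and 0.265 for SK-N-BE(2)c, and in NGP without the filter on low values (adjusted p = 0.0547). They were also lost without NCA replicate 1 or ASO2 replicate 2 in NGP (adjusted p = 0.0677 and 0.0899) and without NCA replicate 3 in SK-N-BE(2)c (adjusted p = 0.0522). Between the ASOs ELAVL3 differed by 0.49 ± 0.05 (SE, adjusted p = 1.11e-08) for NGP and 0.78 ± 0.07 (SE, adjusted p = 5.28e-11) for SK-N-BE(2)c.

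ELAVL2 (ENSG00000107105) counted 1891, 1743, 1726 and 1757 with NCA, 1876, 1660.3, 1585 and 1730.2 with ASO1, and 2022, 1721, 1603 and 1703 with ASO2 in IMR32, where the groups overlapped. In NGP it stood at 1633, 1482 and 1739 with NCA, 909, 968 and 987 with ASO2, and 1128, 969 and 1130.2 with ASO10. Both ASO groups were below NCA there, with -0.76 ± 0.07 (SE, adjusted p = 2.19e-09) and -0.59 ± 0.07 (SE, adjusted p = 1.7e-07). SK-N-BE(2)c had few ELAVL2 reads, with counts of 26.2, 24.2 and 25.1 with NCA, 11.0, 15.4 and 18.0 with ASO2, and 20.5, 20.5 and 18.1 with ASO10. The ASO2 value was -0.75 ± 0.31 (SE, adjusted p = 0.0324) and that of ASO10 -0.34 ± 0.31 (SE, adjusted p = 0.349). The ASO2 call in SK-N-BE(2)c was lost when ASO2 replicate 1 or any 1 NCA library was left out (adjusted p between 0.0592 and 0.127), with DESeq2 on the recovered reads (adjusted p = 0.0802) and without the filter on low values (0.118).

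PTBP2 (ENSG00000117569), the neuronal paralogue of the repressor PTBP1, rose in SK-N-BE(2)c and NGP with ASO2, where 4 of the other 5 neuronal members fell. In IMR32 it counted 2911, 3278, 3097 and 3195 with NCA, 2440.2, 2677, 2645 and 2909 with ASO1, and 2971, 2844, 3017 and 3009 with ASO2. ASO1 lowered it there (-0.23 ± 0.05 (SE, adjusted p = 0.00252)), and ASO2 overlapped NCA (-0.07 ± 0.05 (SE, adjusted p = 0.294)), although ASO2 was called lower without replicate 1 of any group (adjusted p = 0.0255). NGP libraries had PTBP2 at 466, 411 and 454 with NCA, 761, 672 and 763 with ASO2, and 644, 558 and 627 with ASO10. The rise was 0.72 ± 0.08 (SE, adjusted p = 4.53e-08) with ASO2 and 0.46 ± 0.08 (SE, adjusted p = 4.2e-05) with ASO10. PTBP2 counts in SK-N-BE(2)c were 399, 420.4 and 474 with NCA, 635, 619 and 606 with ASO2, and 444, 417 and 472 with ASO10. ASO2 libraries were above NCA (0.53 ± 0.08 (SE, adjusted p = 2.49e-06)) and ASO10 libraries overlapped it (0.05 ± 0.08 (SE, adjusted p = 0.655)). ASO2 was above ASO10 by 0.26 ± 0.08 (SE, adjusted p = 0.00756) in NGP, lost without ASO10 replicate 2 (adjusted p = 0.0593), and by 0.48 ± 0.08 (SE, adjusted p = 1.03e-05) in SK-N-BE(2)c.

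PTBP1 (ENSG00000011304) counted 3851, 3535, 3387 and 3493 with NCA, 4101, 3711, 3771 and 3769.6 with ASO1, and 4388, 4218, 3986 and 4150.4 with ASO2 in IMR32. ASO2 raised it (0.23 ± 0.05 (SE, adjusted p = 0.00127)) and ASO1 overlapped NCA (0.11 ± 0.05 (SE, adjusted p = 0.117)). The ASO1 difference was called with libraries rescaled to 1 total (adjusted p = 0.0187) and without replicate 1 of any group (0.0126). In NGP it stood at 8254, 8669.9 and 8071 with NCA, 10303, 9972 and 10319 with ASO2, and 8312, 8410.3 and 8037 with ASO10. ASO2 libraries were above NCA (0.29 ± 0.04 (SE, adjusted p = 3.37e-06)) and ASO10 libraries were not (-0.01 ± 0.04 (SE, adjusted p = 0.816)). SK-N-BE(2)c libraries counted 7330.1, 6799 and 6501 with NCA, 9763, 9649 and 9536 with ASO2, and 7094, 7191 and 7092 with ASO10. The pattern was the same, with 0.49 ± 0.05 (SE, adjusted p = 8.99e-10) for ASO2 and 0.05 ± 0.05 (SE, adjusted p = 0.364) for ASO10. ASO2 thus raised both PTBP1 and PTBP2 in each of SK-N-BE(2)c and NGP.

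**Figure D5:**
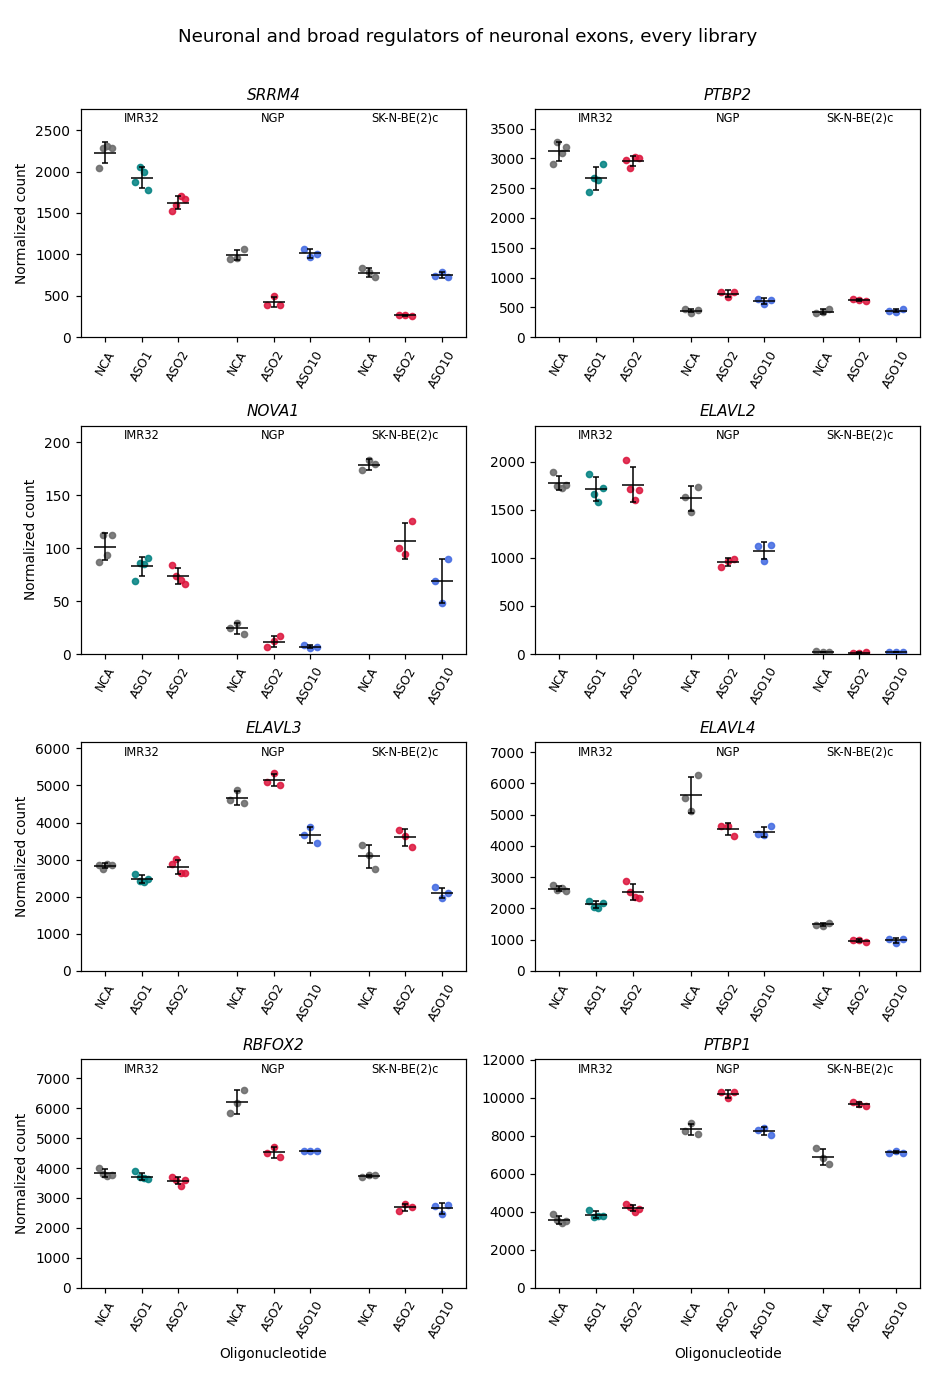
Normalized counts of the 6 neuronal RNA-binding proteins, PTBP1 and RBFOX2, 1 panel for each gene, with points for libraries and bars for the mean ± SD, by line and oligonucleotide. SRRM4 is low with ASO2 alone in SK-N-BE(2)c and NGP, and RBFOX2 is low with both ASOs in these lines.

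The direct test between the oligonucleotides of a line asked which members the ASOs moved differently. In IMR32, 3 members were higher and 17 lower with ASO1 than with ASO2 (40.8% called, against 21.9% of all genes, 9.17% higher and 12.8% lower). That split was 5 and 14 with libraries rescaled to 1 total, where 2354 of 17317 genes were higher and 1581 lower. CLK2 was the member with the smallest adjusted p there, at -0.53 ± 0.06 (SE, adjusted p = 4.95e-06). In NGP 24 were higher and 11 lower with ASO2 than with ASO10 (72.9% called, against 58.6% of all genes). In SK-N-BE(2)c 29 were higher and 6 lower (72.9% called, against 65.4% of all genes). Of these, 6 and 13 differed by at least 0.5 (33.4% and 38.0% of all genes), and 1 did in IMR32 (4.72% of all genes). The 2 ASO groups did not overlap for 21 members in IMR32 (21.0% of all genes), for 36 in NGP (65.0%) and, at 68.2% of all genes, for 39 in SK-N-BE(2)c.

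Both ASOs of IMR32 raised SRSF8, U2AF2, SF3A1 and CLK4 (7.95% of all genes tested rose with both) and lowered SRRM4 (7.12%). In NGP both ASOs raised 18 members (14.8% of all genes), lowered 4 (12.8%) and moved 7 in opposite directions (8.52%): SRSF5, U2AF1, SF3B2, HNRNPD, HNRNPH1, HNRNPR and ELAVL3. In SK-N-BE(2)c both raised 19 (16.1% of all genes), lowered 5 (16.5%) and moved 6 in opposite directions (10.3%): SF3B2, HNRNPA1, HNRNPC, HNRNPH1, HNRNPR and ELAVL3. The 2 ASOs share their NCA libraries in each of these counts. Some of the opposite moves rest on weak calls. The HNRNPD rise with ASO2 in NGP was lost with edgeR (adjusted p = 0.0533), DESeq2 (0.0517), libraries rescaled to 1 total (0.366) and no filter (0.0906), and without ASO2 replicate 1 or 3 or NCA replicate 1 or 2 (between 0.081 and 0.17). The U2AF1 fall with ASO10 in NGP was lost with edgeR (adjusted p = 0.0502), DESeq2 (0.0513) and without ASO10 replicate 1 or 2 or NCA replicate 1 or 3 (between 0.0554 and 0.0686). The HNRNPC fall with ASO10 in SK-N-BE(2)c was lost with edgeR (adjusted p = 0.109), DESeq2 (0.171), no filter (0.0954) or only these groups fitted (0.056), and without ASO10 replicate 2 or 3 or NCA replicate 1 or 3 (between 0.0549 and 0.264). That of HNRNPA1 was lost without ASO10 replicate 2 (adjusted p = 0.0597).

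Scaling had been joint for the SK-N-BE(2)c and NGP tables, which allowed a test of whether an ASO effect differed between these lines. For ASO2, 18 of 48 members differed (37.5%, against 16.7% of 14537 genes), 16 with a larger value in SK-N-BE(2)c and 2 with a smaller one (8.79% and 7.95% of all genes). That split became 10 and 4 with libraries rescaled to 1 total, where 850 of 14558 genes had a larger value and 1731 a smaller one. For ASO10, 14 members differed (29.2%, against 16.9% of genes), 7 in each direction (8.09% and 8.78% of all genes). Under TMM scaling the split was 15 and 3, but all genes shifted too, with 2131 of 14523 larger and 812 smaller. The median of all genes moved from 0.005 to 0.097 with that scaling. A difference of at least 0.5 was reached by 1 member for each ASO (6.92% and 7.85% of all genes): SRRM1 for ASO2 (0.50 ± 0.08 (SE, adjusted p = 0.000135)) and HNRNPA3 for ASO10 (-0.56 ± 0.12 (SE, adjusted p = 0.00225)).

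The ASO2 effect was larger in SK-N-BE(2)c for CLK1 (0.34 ± 0.09 (SE, adjusted p = 0.0113)), CLK3 (0.48 ± 0.08 (SE, adjusted p = 0.000311)) and U2AF2 (0.38 ± 0.07 (SE, adjusted p = 0.00101)). For SRSF4 both ASO effects were larger in SK-N-BE(2)c, by 0.30 ± 0.07 (SE, adjusted p = 0.00355) for ASO2 and 0.29 ± 0.07 (SE, adjusted p = 0.00474) for ASO10. All 3 speckle genes and 6 of the 7 branch point and 3′ splice site factors had a larger ASO2 effect in SK-N-BE(2)c, and 2 and 5 of them with libraries rescaled to 1 total. The PTBP1 difference for ASO2, 0.20 ± 0.06 (SE, adjusted p = 0.0312), was lost with libraries rescaled to 1 total (adjusted p = 0.153) and when NGP ASO2 replicate 2, NGP NCA replicate 1 or 2, SK-N-BE(2)c ASO2 replicate 1 or 2 or SK-N-BE(2)c NCA replicate 2 or 3 was left out (adjusted p between 0.0524 and 0.0874). SRRM4 fell in both lines with ASO2, and its difference of -0.32 ± 0.12 (SE, adjusted p = 0.0604) did not pass the threshold, but it did with libraries rescaled to 1 total (adjusted p = 0.024), edgeR (0.0479) and DESeq2 (0.046).

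Levels of different genes were compared per kilobase of the longest coding transcript, among NCA libraries of a line. HNRNPA2B1 was the most abundant member in each line, at 5604 ± 131 normalized counts per kilobase in IMR32 (SD, n = 4), 5225 ± 289 for NGP and 6106 ± 609 for SK-N-BE(2)c (n = 3 each). NOVA1 was the least abundant in IMR32 (25.9 ± 3.28) and NGP (6.16 ± 1.38), and ELAVL2 in SK-N-BE(2)c (6.61 ± 0.259). Among the kinases, CLK2 and CLK1 stood well above CLK4 and CLK3 in every line, with CLK2 at 816 ± 59.5, CLK1 at 635 ± 15.1, CLK4 at 101 ± 3.95 and CLK3 at 81.4 ± 4.06 in IMR32. The CLK3 level rests on a longest coding transcript of 10498 bases in the annotation, and with the union of exons as length CLK3 stood above CLK4 in every line. With the union of exons SRSF2 stood above HNRNPA2B1 in NGP, and U2AF1 below NOVA1 in IMR32, where U2AF1 was at 27.9 ± 7.49 per kilobase of the longest coding transcript, within its SD of NOVA1. The PTBP1 level exceeded that of PTBP2 by 3.72-fold in IMR32, by 61.1-fold in NGP and, for SK-N-BE(2)c, by 51.9-fold. With the union of exons as length these ratios were 2.15, 35.3 and 30.0, so their size moves by over 1.5 times with the length used. ELAVL4 exceeded ELAVL2 by 1.41-fold in IMR32, by 3.34-fold in NGP and by 56.6-fold in SK-N-BE(2)c. The order of ELAVL3 and ELAVL4 in IMR32 and NGP turned with the choice of length.

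Other parts of the splicing machinery were counted in lists of 161 genes in all. With ASO2 in SK-N-BE(2)c 98 of 150 tested rose and 36 fell (65.3% and 24.0%, where 33.6% and 33.4% of all genes did), and with ASO10 58 rose and 45 fell (38.7% and 30.0%, against 27.8% and 31.1%). In NGP 67 of 154 rose and 34 fell with ASO2 (43.5% and 22.1%, against 30.6% and 28.1%), and 46 rose and 38 fell with ASO10 (29.9% and 24.7%, against 26.8% and 27.6%). In IMR32 38 of 155 rose and 20 fell with ASO1 (24.5% and 12.9%, against 13.6% and 14.4%), and 59 rose and 13 fell with ASO2 (38.1% and 8.39%, against 17.6% and 14.8%). Core snRNP proteins build the spliceosome's small nuclear particles. Of 25, ASO2 raised 17 and lowered 4 and ASO10 raised 12 and lowered 5 in SK-N-BE(2)c, while in NGP ASO2 raised 12 and lowered 6 and ASO10 raised 5 and lowered 5. ASO1 raised 5 and ASO2 raised 11 of them in IMR32. Nonsense-mediated decay factors degrade messages with early stop codons. Of 9, ASO10 raised 8 in NGP, and raised 8 and lowered 1 in SK-N-BE(2)c, while ASO2 raised 4 and lowered 2 in NGP and raised 5 and lowered 3 in SK-N-BE(2)c. ASO1 raised 4 and lowered 1 of them in IMR32, and ASO2 raised 6. Of the other tissue-regulated RNA-binding proteins, a list of 28 genes, ASO1 lowered 11 of 23 in IMR32, and ASO2 raised 2 and lowered 7. In NGP 4 of 22 rose and 9 fell with ASO2, and 4 rose and 13 fell with ASO10. Of 18 in SK-N-BE(2)c, 5 rose and 13 fell with ASO2, and 1 rose and 13 fell with ASO10.

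The neuronal CELF4 fell most in that list with ASO1 (-0.60 ± 0.06 (SE, adjusted p = 1.82e-07)) and ASO2 (-0.65 ± 0.06 (SE, adjusted p = 1.28e-07)) in IMR32 and with ASO2 in NGP (-1.02 ± 0.13 (SE, adjusted p = 1.94e-07)) and SK-N-BE(2)c (-1.25 ± 0.13 (SE, adjusted p = 1.04e-09)). SRRM3, a relative of SRRM4, fell with ASO2 (-0.89 ± 0.10 (SE, adjusted p = 1.97e-08)) and ASO10 (-1.42 ± 0.10 (SE, adjusted p = 6.21e-12)) in NGP as well as with ASO10 in SK-N-BE(2)c (-1.14 ± 0.09 (SE, adjusted p = 2.11e-11)). ASO10 also lowered MSI1 in NGP (-1.48 ± 0.15 (SE, adjusted p = 6.51e-09)) and QKI in SK-N-BE(2)c (-1.70 ± 0.08 (SE, adjusted p = 1.06e-15)). RBFOX1 fell with ASO1 (-0.52) and CELF5 with ASO2 (-0.53) in IMR32. Among kinases that act on SR proteins or splicing, ASO2 lowered SRPK1 in SK-N-BE(2)c (-1.09 ± 0.06 (SE, adjusted p = 4.32e-15)), and DYRK1B rose there with ASO2 (1.19) and ASO10 (1.15). Rises elsewhere included that of RSRC2 with ASO2 (1.21) in SK-N-BE(2)c. The strongest in NGP were SNRPN (1.07) and SMG1 (0.89) with ASO2, and SNRNP48 (1.03) and SMG9 (0.75) with ASO10. In IMR32 the strongest were SAP18 (0.53) and SCNM1 (0.51) with ASO1, and SCNM1 (0.57) and RBM38 (0.55) with ASO2.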

How the data were processed

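Libraries of RNA from transfected neuroblastoma lines were sequenced, and the authors deposited 1 table of normalized counts per line (a depth-scaled signal per gene, by Ensembl identifier). Per the submitters' processing notes the tools were FastQC 0.11.8, cutadapt 1.18, STAR 2.6.0, HTSeq 0.6.1 and DESeq2 1.42.0, with builds hg19 and GRCh37, and their settings and the annotation are not given in the sources used here. Per the labels' protocols either a paired-end total RNA kit or a single-end mRNA kit was used, without saying which library had which. Each library's values were whole multiples of 1 step (100% within 0.01), so reads were recovered for the count tests and the totals given. The IMR32 table has 174 rows that name no gene, holding 0.172% of its values, and these were left out. Columns of per-sample values that were not used numbered 0. Symbols from the name table matched 99.9% of IMR32 genes and 89.8% of genes in the other tables.

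Genes with a mean of at least 10 in a line were tested with limma 3.58.1 (R 4.3.3) on log2(value + 1), with a mean-variance trend, 1 model of 3 groups per line and Benjamini-Hochberg adjustment over all genes tested. Differences between NGP and SK-N-BE(2)c came from 1 joint model, since these tables were scaled together. Alternatives were a pseudocount of 5 or 0.5, no filter, rescaling to 1 total, TMM, edgeR 4.0.16 and DESeq2 1.42.0 on recovered reads, a log2 fold change of at least 0.5, a replicate block, only the groups compared, and leaving out each library. The scripts were tested on simulated data. A second gene length (union of exons) and the fit without replicate 1 of IMR32 were added after seeing the data.

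The members and all gene lists were chosen with earlier results of these data known. Values by library are given for the CLK, PTBP, RBFOX, SRRM4, ELAVL and NOVA1 genes, for members called with 1 sign in all 6 comparisons, for the 2 SR and 2 HNRNP genes with the largest mean change over the 6 comparisons (SRSF8, measured in 2, was left out), and for the member with the smallest adjusted p in each comparison between ASOs. Other members are given by count, with up to 4 examples of the largest change per group and comparison. From the other splicing lists the 2 genes that rose most and the 2 that fell most in each comparison are named, except for an item that is not reported here. Markers of adrenergic, mesenchymal, Schwann and glial, epithelial, immune and neuronal cells were counted. Of the last of these, means of at least 10 were reached by 8 of 8 neuron markers in IMR32 and 7 in the other lines. Of 5 Schwann and glial markers 1, 1 and 2 reached it (IMR32, then NGP, then SK-N-BE(2)c), of 6 epithelial markers 1, 2 and 2, of 10 mesenchymal markers 7, 4 and 4, and of 5 immune markers none, 2 and 1.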

Additional observations from a re-analysis of the deposited data

Results flagged for a closer look

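In IMR32, 5 values stood apart from the other 3 of their group by Dixon's criterion for 4 values, among 51 groups of the 17 members given by library. Chance alone marks about 1 group in 20. They were PTBP1 in ASO1 replicate 1, with a normalized count of 4101, and SRRM4 in NCA replicate 1, with 2039. The others were TRA2A in NCA replicate 1 (1306), HNRNPA3 in ASO2 replicate 1 (3939) and HNRNPH1 in ASO1 replicate 3 (8003). Replicate 1 holds 4 of the 5.

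The effect of an ASO differed between SK-N-BE(2)c and NGP for 11 of the results on these members, each by the limma interaction test with Benjamini-Hochberg adjustment, and each value below is the log2 fold change in SK-N-BE(2)c minus that in NGP. For ASO2 the differences were 0.34 ± 0.09 (SE, adjusted p = 0.0113) for CLK1, 0.48 ± 0.08 (SE, adjusted p = 0.000311) for CLK3, 0.38 ± 0.07 (SE, adjusted p = 0.00101) for U2AF2 and 0.30 ± 0.07 (SE, adjusted p = 0.00355) for SRSF4. PTBP1 gave 0.20 ± 0.06 (SE, adjusted p = 0.0312) and ELAVL4 -0.31 ± 0.09 (SE, adjusted p = 0.0226). For ASO10 they were 0.29 ± 0.07 (SE, adjusted p = 0.00474) for SRSF4, -0.56 ± 0.12 (SE, adjusted p = 0.00225) for HNRNPA3 and 0.22 ± 0.07 (SE, adjusted p = 0.027) for CLK2. PTBP2 gave -0.41 ± 0.11 (SE, adjusted p = 0.0159) and ELAVL4 -0.26 ± 0.09 (SE, adjusted p = 0.0466).

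Several of these calls were lost when 1 library, often any of several, was left out. ELAVL4 with ASO10 lost its call without any 1 of 9 of the libraries compared (adjusted p between 0.0532 and 0.155) under TMM scaling (adjusted p = 0.195) and without the filter on low values (0.106), and with ASO2 without NGP ASO2 replicate 1 or 2, NGP NCA replicate 1 or 2, or replicate 3 of SK-N-BE(2)c ASO2 or NCA (adjusted p between 0.0531 and 0.0778). CLK2 lost it without NGP ASO10 replicate 3, NGP NCA replicate 1 or SK-N-BE(2)c ASO10 replicate 2 or 3 (adjusted p between 0.0518 and 0.0691), with edgeR (0.0652) and without the filter (0.0582). PTBP2 lost it without NGP NCA replicate 2 or SK-N-BE(2)c NCA replicate 3 (adjusted p = 0.0505 and 0.0546) and under TMM scaling (adjusted p = 0.0527).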

How the results depend on the processing

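Where a log2 fold change of 0.5 in size was also required, the members called were 1, 1 and 1 in IMR32 (ASO1 and ASO2 against NCA, and ASO1 against ASO2), 9, 7 and 6 in NGP (ASO2 and ASO10 against NCA, and ASO2 against ASO10), 20, 10 and 13 in SK-N-BE(2)c, and 1 and 1 for the differences between lines in the ASO2 and ASO10 effects. Leaving out each library gave 14 to 18, 16 to 21 and 16 to 23 in IMR32, 34 to 39, 28 to 32 and 28 to 31 in NGP, and 39 to 41, 32 to 36 and 33 to 34 in SK-N-BE(2)c. For the differences between lines it gave 13 to 19 for ASO2 and 8 to 15 for ASO10, the lowest without SK-N-BE(2)c ASO10 replicate 2. The ASO10 difference between lines kept 8 members without the filter on low values and 9 with only the groups compared, against 14. SRSF2 between ASO2 and ASO10 in SK-N-BE(2)c, called higher with ASO2, was -0.0044 (adjusted p = 0.939) with libraries rescaled to 1 total, and the cause was not tested. The replicate block, tried because the groups share replicate numbers, called 27 members for ASO1 in IMR32, 16 higher and 11 lower, against 17. It called 34 for ASO2 there, 30 higher and 4 lower, against 19, and stayed within 1.5 times elsewhere. The share of all genes called with the block is not given here, so these counts have no background beside them. Same-numbered libraries did not deviate together in every pair of any comparison (correlations from -0.06 to 0.33), so the numbers are not taken as a pairing, although the first replicates of IMR32 did (0.26 to 0.33). Leaving these out in every group, a choice made after seeing the data, called 29 members for ASO2 in IMR32, 24 for ASO1 and 27 between the ASOs. Of all genes 38.1%, 32.9% and 28.8% were called in these fits. Of the results on single members, 515 kept direction and side of the threshold with edgeR, 508 with DESeq2, 508 with TMM scaling, 480 when rescaled to the same total and 493 without the filter. Depth limits ELAVL2 in SK-N-BE(2)c and NOVA1 in NGP most, which have the fewest reads among the members.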
